A study of Mus musculus with 4 samples.

Results

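The 8 cytokine feedback genes described here (8 of the 26687 gene symbols in the count tables) were measured in single long-term hematopoietic stem cells (LT-HSCs) of mice: Cish, Socs1, Socs2, Socs3, Pim1, Pim2, Osm and Bcl6. They were chosen by name as genes that STAT transcription factors control downstream of cytokine receptors and of Flt3-ITD, and each was listed in all 4 count tables. The libraries were NPMc+/Flt3-ITD, Flt3-ITD, NPMc+ and Mx, with 1 library per genotype, and the series names Mx as its control. NPMc+ denotes a cytoplasmic mutant form of nucleophosmin and Flt3-ITD an internal tandem duplication in the receptor tyrosine kinase Flt3. The genotype field reads MxCRE for the control and gives only the allele names for the other 3 libraries, so whether they also carry Mx-Cre is not stated. Mx-Cre is a Cre recombinase driven by an interferon-inducible promoter. All mice were C57BL/6 and 8 to 11 weeks old, and the cells were sorted from crushed bone marrow of the limbs and sternum. The number of mice pooled in a library is not given. Genotype and library cannot be told apart, so no p-values were computed.

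Cytokine receptors of this kind signal through JAK kinases, which phosphorylate STAT proteins that enter the nucleus and switch on target genes. Several of those targets close the loop. CISH and the SOCS proteins carry an SH2 domain that docks on phosphorylated receptors or kinases, and a SOCS box that recruits a ubiquitin ligase. The PIM kinases are active as soon as they are made, so that their abundance sets their activity, and they promote survival and growth of blood cells. Oncostatin M, the product of Osm, is a secreted cytokine of the interleukin-6 family. BCL6 is a transcriptional repressor that recognises DNA resembling STAT sites, and its gene is known to be repressed by STAT5. Flt3-ITD is known for signalling without ligand and for activating STAT5, and Cish, Socs2 and Pim1 are well known STAT5 targets.

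The sequence that STAT dimers bind, TTCNNNGAA, reads the same on both strands and was searched in RefSeq promoter windows of GRCm38.p6, from 250 bases before to 50 bases after a transcription start. Of all 32851 windows, 8.3% held it at least once and 0.457% held it 2 or more times. Windows were found for 6 of the 8 genes and not for Socs2 and Osm. The motif also overlaps with sites of BCL6. The stretches that hold it are shown because Cish, Socs3 and Bcl6 are the members with a match. They are written 5′ to 3′ on the gene's strand with the motif in capitals.
Cish, chr9:107296654-107296683, plus strand: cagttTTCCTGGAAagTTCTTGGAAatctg
Socs3, chr11:117969502-117969531, minus strand: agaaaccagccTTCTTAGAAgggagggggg
Bcl6 first start, chr16:23988952-23988981, minus strand: tagcaaattagTTCTCAGAAttccagaggc
Bcl6 second start, chr16:23981433-23981462, minus strand: caggccgcggcTTCCTGGAAagttacttct
Bcl6 second start, chr16:23981387-23981416, minus strand: gggcaggagtgTTCTGTGAAatccttagag
Bcl6 second start, chr16:23981353-23981382, minus strand: gatcgactacgTTCCGGGAAtgagagggct
The Cish stretch held 2 motifs, beginning 0 and 11 bases from the RefSeq start, and GENCODE M21 places it in an untranslated part of an exon of a longer Cish transcript. In Socs3 the motif began 154 bases before the start, in a stretch that lies inside the longer gene model but in no exon. Bcl6 had 1 match upstream of the gene before its first start and 3 inside the gene before its second start. No match lay in the windows of Socs1, Pim1 (2 starts) or Pim2. A match describes the letters only, and no binding was measured.

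The 4 libraries held 11407 barcodes, of which 10608 were kept as cells on 3 limits: a depth of 1000 UMIs or more, 500 genes or more, and mitochondrial UMIs no higher than 10%. Kept cells numbered 3321 in NPMc+/Flt3-ITD, 2393 in Flt3-ITD, 2375 in NPMc+ and 2519 in Mx, with median depths of 7323 to 9466 UMIs. Across all pairs of libraries, 160 barcodes were shared, 52 of them among kept cells. Male cells made up 93.1% of the cells that could be sexed in NPMc+/Flt3-ITD and 56.1% to 70.0% in the others. The labelled cell type was checked with 10 LT-HSC markers. All were detected in each library as a whole, which says little about single cells. Their summed level was 238 CPM (CPM is the UMI count of a gene scaled to a common library total) in NPMc+/Flt3-ITD, 420 in Flt3-ITD, 570 in NPMc+ and 859 in Mx. At least 2 LT-HSC markers were detected in 1284 NPMc+/Flt3-ITD cells, 1646 Flt3-ITD cells, 1888 NPMc+ cells and 2234 Mx cells. At least 2 T-lineage markers were detected in 2018, 197, 232 and 145 cells in that order, all without thinning. The 11 T-lineage markers summed to 1116 CPM in NPMc+/Flt3-ITD and to 75.2 to 85.8 CPM in the other libraries. In that library Trbc1 was at 330 CPM, Thy1 at 206, Tcf7 at 192 and Lck at 185, while the defining markers Cd3e, Cd3g, Cd3d and Cd2 were at 0.19 to 1.41 CPM. Megakaryocyte markers were highest in NPMc+ (791 CPM, against 209 in Mx), mast or basophil markers in NPMc+/Flt3-ITD (656 CPM, against 19.0 in Mx), and immediate-early genes in Flt3-ITD (23073 CPM, against 6464 in Mx). Of the mast or basophil sum in NPMc+/Flt3-ITD, Cpa3 made up 550 CPM, Gzmb 80.6 CPM and Mcpt8 25.1 CPM (0 in Mx). In the same library Fcer1a was at 0.63 CPM (2.15 in Mx), Ms4a2 at 0.48 (0.19 in Mx) and Prss34 at 0. Granulocyte progenitor markers summed to 532 CPM in NPMc+/Flt3-ITD, 664 in Flt3-ITD, 690 in NPMc+ and 535 in Mx. Prtn3 made up 300, 489, 504 and 518 CPM of these sums in that order. At least 2 of these markers were detected in 1253, 801, 920 and 216 cells in the same order. Flt3 itself stood at 70.9 CPM in NPMc+/Flt3-ITD, 31.8 in Flt3-ITD, 12.8 in NPMc+ and 29.9 in Mx, and Npm1 at 2180, 1724 and 1820 CPM in the mutant libraries in that order and 1628 in Mx. These counts do not separate mutant from normal transcripts.

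**Figure D1:**
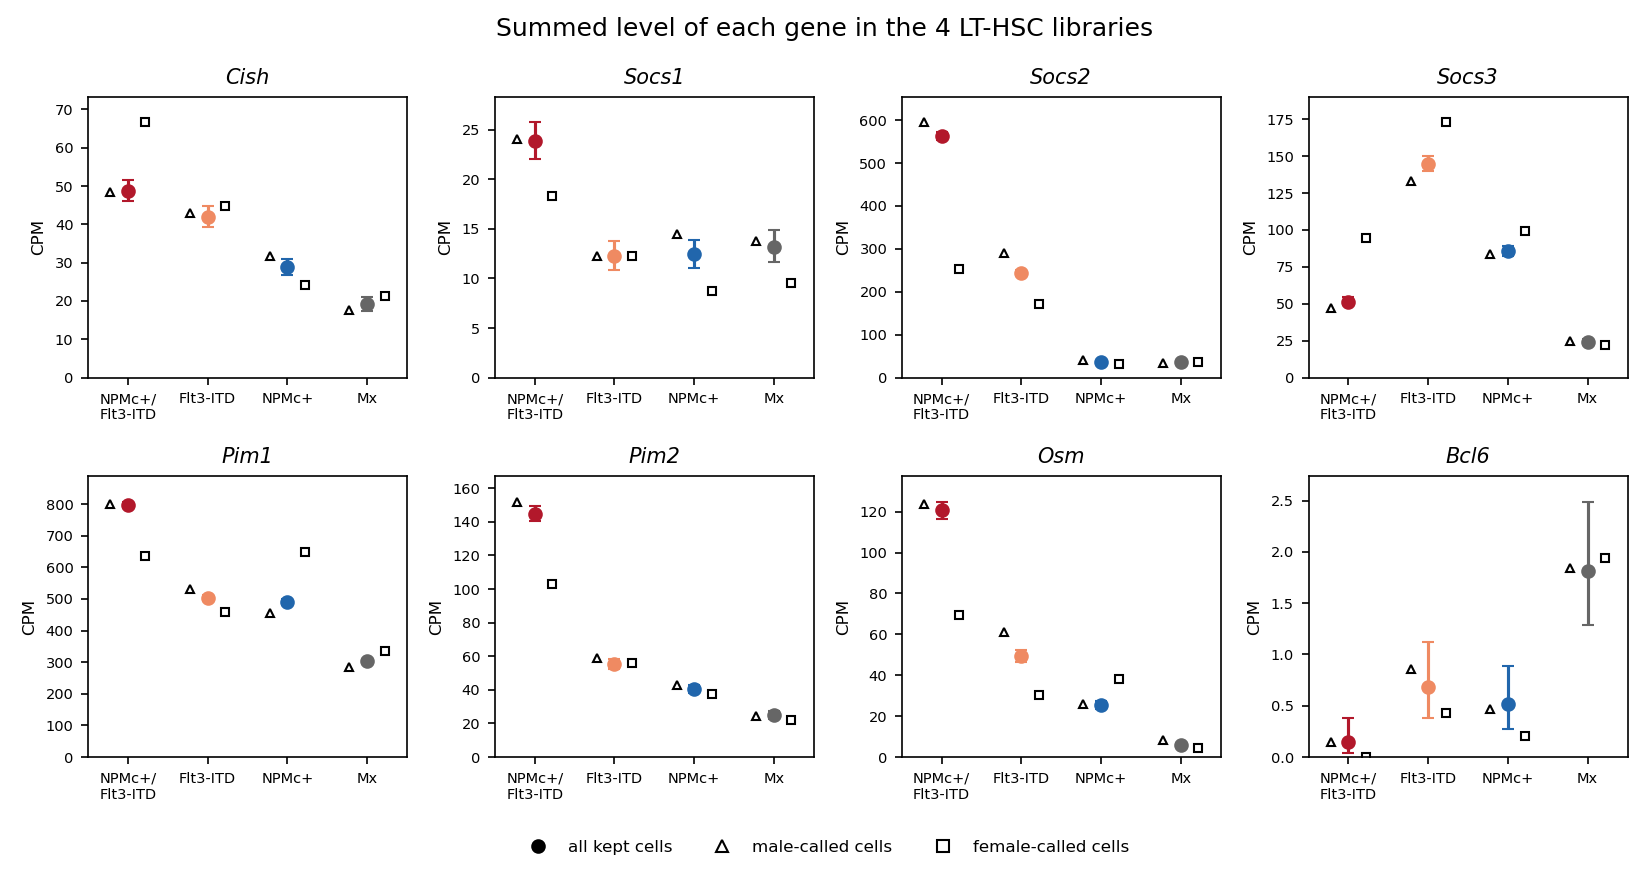
Level of each gene in CPM (vertical axes from 0, a separate scale per gene) in the NPMc+/Flt3-ITD, Flt3-ITD, NPMc+ and Mx libraries, with 1 library per genotype. Filled circles are all kept cells with exact 95% Poisson intervals for counting error, triangles are male-called cells and squares female-called cells. Socs2 stands at 563 CPM in NPMc+/Flt3-ITD and 243 in Flt3-ITD and near 37 in NPMc+ and Mx, while Socs3 is highest in Flt3-ITD at 145 CPM.

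Among the SOCS-family brakes, Socs2 separated the libraries with the Flt3-ITD allele from those without it. Socs2 (chromosome 10, 95385362 to 95417180, minus strand, mm10) restrains growth hormone and STAT5 signalling. It stood at 563 CPM in NPMc+/Flt3-ITD (exact 95% Poisson interval 554 to 572) and 243 CPM in Flt3-ITD (237 to 250), against 36.9 CPM in NPMc+ (34.5 to 39.3) and 36.7 CPM in Mx (34.1 to 39.4). Intervals throughout cover counting error only. The NPMc+ and Mx values lay within each other's interval. Flt3-ITD was 6.63-fold above Mx (95% interval of the ratio 6.15 to 7.16), and NPMc+/Flt3-ITD was 15.4-fold above Mx (14.3 to 16.5), 15.3-fold above NPMc+ (14.3 to 16.3) and 2.32-fold above Flt3-ITD (2.24 to 2.39). NPMc+ over Mx was 1.01 (0.91 to 1.11).

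The difference in Socs2 was spread over cells. After each cell was thinned to 3000 UMIs, Socs2 was detected in 71.4% of NPMc+/Flt3-ITD cells and 48.3% of Flt3-ITD cells, against 10.2% of NPMc+ cells and 9.82% of Mx cells. At least 3 Socs2 UMIs were found in 22.4% of NPMc+/Flt3-ITD cells and 5.33% of Flt3-ITD cells, against 0.62% of NPMc+ cells and 0.30% of Mx cells. The top 1% of cells held 5.26% and 6.55% of the Socs2 UMIs in NPMc+/Flt3-ITD and Flt3-ITD. Cells with at least 2 erythroid markers detected gave a lower share: 41.7% of 24 such cells in NPMc+/Flt3-ITD and 25.0% of 44 in Flt3-ITD, against 3.68% of 191 in NPMc+ and 2.0% of 50 in Mx. Their median depth was 13024 to 14362 UMIs before thinning, above that of the other cells. Barcodes under 1000 UMIs, which can hold free RNA, gave 578 CPM of Socs2 in NPMc+/Flt3-ITD, 178 in Flt3-ITD, 103 in NPMc+ and 43.1 in Mx, from 57, 16, 3 and 2 UMIs.

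Sex and lineage markers moved with parts of this result. In female-called cells, of which NPMc+/Flt3-ITD had 179, Socs2 was at 252 CPM in NPMc+/Flt3-ITD and 172 in Flt3-ITD, against 32.7 in NPMc+ and 35.7 in Mx. In male-called cells it was at 596 CPM in NPMc+/Flt3-ITD and 291 in Flt3-ITD, against 41.8 in NPMc+ and 33.5 in Mx. The ratio of NPMc+/Flt3-ITD to Mx was thus 7.05 in female cells and 17.8 in male cells, and its ratio to Flt3-ITD was 1.46 in female cells and 2.04 in male cells. Among cells with UMIs of both Procr and Hlf, 2 stem cell markers, Socs2 was at 677 CPM in NPMc+/Flt3-ITD and 288 in Flt3-ITD, against 70.5 in NPMc+ and 48.7 in Mx. With cells that had 2 markers of another lineage left out, 484 cells remained in NPMc+/Flt3-ITD, 1082 in Flt3-ITD, 641 in NPMc+ and 1524 in Mx. Markers were called without thinning, and this subset was shallower. Its median depths were 5179, 7173.5, 6201 and 6998.5 UMIs in that order, against 7323, 8661, 9466 and 8094 in all kept cells. In this subset NPMc+ reached 87.0 CPM against 45.1 CPM in Mx, a log2 ratio of 0.95 in place of 0.01, and NPMc+/Flt3-ITD was 6.37-fold above NPMc+ in place of 15.3-fold. Within NPMc+, cells with 2 megakaryocyte markers had 21.5 CPM of Socs2 and the other NPMc+ cells 66.8 CPM. In Mx these were 27.4 and 41.0 CPM. The megakaryocyte-marked NPMc+ cells were deeper, with a median of 11634 UMIs before thinning against 7288 in the other NPMc+ cells. At 3000 UMIs Socs2 was detected in 6.40% and 14.8% of them in that order. The part of sex and lineage markers in the result was not tested.

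Socs3 showed another order, with both single-allele libraries above the double one. Socs3 (chromosome 11, 117966079 to 117970047, minus strand) binds the shared receptor chain of the interleukin-6 family and inhibits JAKs. It stood at 51.5 CPM in NPMc+/Flt3-ITD (48.8 to 54.3), 145 CPM in Flt3-ITD (140 to 150), 85.6 CPM in NPMc+ (82.0 to 89.3) and 24.2 CPM in Mx (22.1 to 26.4). No 2 of these intervals overlapped. Flt3-ITD was 5.99-fold above Mx (5.45 to 6.60), NPMc+ 3.54-fold above Mx (3.21 to 3.91) and NPMc+/Flt3-ITD 2.13-fold above Mx (1.92 to 2.37). NPMc+/Flt3-ITD was 2.81-fold below Flt3-ITD (2.64 to 3.0) and 1.66-fold below NPMc+ (1.55 to 1.78).

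Shares of cells gave Socs3 the same order. At 3000 UMIs it was detected in 10.9% of NPMc+/Flt3-ITD cells, 31.9% of Flt3-ITD cells, 19.7% of NPMc+ cells and 6.79% of Mx cells. Immediate-early genes moved partly alongside, at 15326 CPM in summed level in NPMc+/Flt3-ITD, 23073 in Flt3-ITD, 13856 in NPMc+ and 6464 in Mx. In cells with no UMI of the immediate-early genes Nr4a1 and Atf3, Socs3 stood at 46.6 CPM in NPMc+/Flt3-ITD, 104 in Flt3-ITD, 82.1 in NPMc+ and 24.3 in Mx. That subset held 1691, 122, 547 and 1826 cells in the same order of libraries, and in it the ratio of NPMc+/Flt3-ITD to Mx was 1.92, under 2-fold. Its median depth was 3792 UMIs in Flt3-ITD and 6456 to 7766 in the other libraries. The Flt3-ITD value rests on 65 Socs3 UMIs. Female-called cells put Socs3 at 94.8 CPM in NPMc+/Flt3-ITD, 173 in Flt3-ITD, 99.2 in NPMc+ and 22.1 in Mx, so that NPMc+/Flt3-ITD was 4.29-fold above Mx there and 0.96 times NPMc+. In male-called cells NPMc+/Flt3-ITD was 1.92-fold above Mx.

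Cish (chromosome 9, 107296026 to 107302784, plus strand), which encodes a STAT5-induced inhibitor that binds cytokine receptors, was graded over the libraries when all cells were counted. It stood at 48.8 CPM in NPMc+/Flt3-ITD (46.2 to 51.5) and 41.9 CPM in Flt3-ITD (39.2 to 44.7), against 28.9 CPM in NPMc+ (26.8 to 31.1) and 19.1 CPM in Mx (17.3 to 21.1). Flt3-ITD was 2.19-fold above Mx (1.94 to 2.47), NPMc+/Flt3-ITD 2.55-fold above Mx (2.28 to 2.86) and NPMc+ 1.51-fold above Mx (1.33 to 1.71). NPMc+/Flt3-ITD was 1.69-fold above NPMc+ (1.54 to 1.85) and 1.16-fold above Flt3-ITD (1.07 to 1.27). Within each sex the order by value was the same, but some neighbouring intervals overlapped. In female-called cells those of NPMc+ (24.1 CPM, 19.9 to 28.8) and Mx (21.4 CPM, 17.5 to 25.7) did. In male-called cells those of NPMc+/Flt3-ITD (48.5 CPM, 45.5 to 51.5) and Flt3-ITD (42.9 CPM, 38.8 to 47.3) did. Detection at 3000 UMIs was 11.8% in NPMc+/Flt3-ITD and 11.2% in Flt3-ITD, with overlapping intervals (10.7% to 13% and 9.92% to 12.6%), against 8.31% in NPMc+ and 6.49% in Mx. With cells that had 2 markers of another lineage left out, NPMc+ had the highest value, and the levels were 57.1 CPM in NPMc+/Flt3-ITD (48.1 to 67.3), 48.6 in Flt3-ITD (43.8 to 53.8), 59.8 in NPMc+ (52.5 to 67.7) and 21.8 in Mx (19.0 to 24.8). NPMc+ was then 2.74-fold above Mx, and its interval overlapped those of both libraries with the Flt3-ITD allele. Within NPMc+, cells with 2 megakaryocyte markers had 20.3 CPM of Cish and the other cells 45.5 CPM. The marked cells were deeper (median 11634 UMIs against 7288), and at 3000 UMIs Cish was detected in 4.86% of them and 12.5% of the others. The part of the marked cells in the result was not tested. The gene overlaps Gm17040 and Gm17041 on the other strand, which had 3 to 13 UMIs per library, and whether the counting used strand is not given in the sources used here.

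Socs1, an inhibitor of JAK kinases best known for limiting interferon responses (chromosome 16, 10782240 to 10785536, minus strand), was above the others in NPMc+/Flt3-ITD. It stood at 23.9 CPM in NPMc+/Flt3-ITD (22.1 to 25.8), against 12.2 CPM in Flt3-ITD (10.8 to 13.8), 12.4 CPM in NPMc+ (11.1 to 13.9) and 13.2 CPM in Mx (11.7 to 14.9). The last 3 libraries had overlapping intervals. NPMc+/Flt3-ITD was 1.81-fold above Mx (1.57 to 2.09), 1.95-fold above Flt3-ITD (1.69 to 2.26) and 1.92-fold above NPMc+ (1.67 to 2.20). Several marker lists moved with this difference. In NPMc+/Flt3-ITD, Socs1 was at 17.2 CPM in cells with at least 2 granulocyte progenitor markers and 30.7 in the other cells. By LT-HSC markers these values were 18.6 and 28.8 CPM, and by megakaryocyte markers 16.0 and 25.9. T-lineage markers went with a higher level. Cells of the NPMc+/Flt3-ITD library with at least 2 T-lineage markers had 27.5 CPM of Socs1 and its other cells 16.6 CPM, and with the marked cells of each library left out Mx was at 13 CPM, a log2 ratio of 0.35 in place of 0.85. With marked cells of every other lineage left out, the intervals of all 4 libraries overlapped, and NPMc+/Flt3-ITD was 1.13-fold above Mx.

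**Figure D2:**
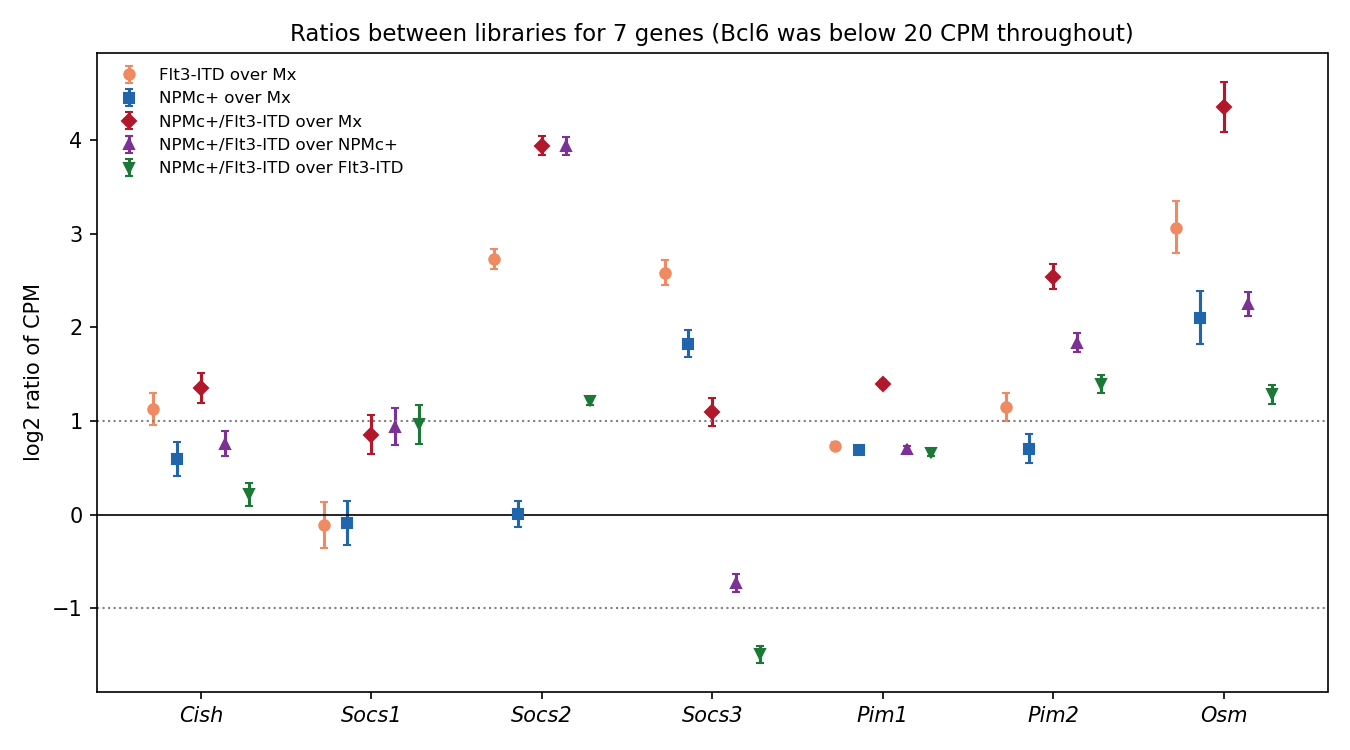
Log2 ratio of CPM between libraries (vertical axis) for 7 genes, with exact 95% intervals for counting error and dotted lines at 2-fold. Osm and Socs2 have the highest ratios of NPMc+/Flt3-ITD over Mx, at 4.35 and 3.94, and Socs3 alone among the 7 falls below -1, at -1.49 for NPMc+/Flt3-ITD over Flt3-ITD.

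The survival kinases Pim1 and Pim2 were higher in all 3 mutant libraries than in Mx. Pim1 (chromosome 17, 29490753 to 29496112, plus strand) stood at 798 CPM in NPMc+/Flt3-ITD (787 to 808), 504 CPM in Flt3-ITD (495 to 514), 491 CPM in NPMc+ (483 to 500) and 304 CPM in Mx (296 to 311). Flt3-ITD and NPMc+ overlapped, at 1.66-fold (1.61 to 1.71) and 1.62-fold (1.57 to 1.67) above Mx, and NPMc+/Flt3-ITD was 2.63-fold above Mx (2.55 to 2.7). In female-called cells the ratio of NPMc+/Flt3-ITD to Mx was 1.90 and its ratio to NPMc+ 0.98, against 2.81 and 1.76 in male-called cells. With cells that had 2 markers of another lineage left out, Pim1 stood at 1011 CPM in NPMc+/Flt3-ITD (972 to 1052), 572 in Flt3-ITD (555 to 589), 840 in NPMc+ (812 to 868) and 355 in Mx (344 to 367), so NPMc+ lay above Flt3-ITD and was 2.36-fold above Mx. Within NPMc+, cells with 2 megakaryocyte markers had 353 CPM of Pim1 and the other cells 761 CPM. The marked cells were deeper (median 11634 UMIs against 7288), and at 3000 UMIs Pim1 was detected in 63.2% of them and 80.7% of the others. The part of the marked cells in the result was not tested. Pim1 was the most widely detected of the 8 at 3000 UMIs, in 83.8% of NPMc+/Flt3-ITD cells, 70.2% of Flt3-ITD cells, 71.1% of NPMc+ cells and 54.8% of Mx cells. The overlapping Gm26885 on the other strand had 11 to 32 UMIs per library.

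Pim2, an X-linked gene (chromosome X, 7878262 to 7883432, plus strand), stood at 145 CPM in NPMc+/Flt3-ITD (140 to 150), 55.2 CPM in Flt3-ITD (52.1 to 58.4), 40.5 CPM in NPMc+ (38.1 to 43.1) and 24.9 CPM in Mx (22.8 to 27.1). The 4 intervals did not overlap. NPMc+/Flt3-ITD was 5.83-fold above Mx (5.32 to 6.40), 3.58-fold above NPMc+ (3.34 to 3.83) and 2.63-fold above Flt3-ITD (2.46 to 2.80). Flt3-ITD was 2.22-fold (2.0 to 2.46) and NPMc+ 1.63-fold (1.46 to 1.81) above Mx. Because the libraries differed in sex, the sexes were read apart: female-called cells had 103 CPM in NPMc+/Flt3-ITD, 55.9 in Flt3-ITD, 37.4 in NPMc+ and 22.1 in Mx, and male-called cells 152, 58.6, 42.8 and 24.2 CPM. The order of libraries was the same in both sexes. With cells that had 2 markers of another lineage left out, the intervals of Flt3-ITD (58.8 CPM, 53.5 to 64.5) and NPMc+ (61.9 CPM, 54.6 to 70.0) overlapped, and NPMc+ was 2.27-fold above Mx.

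Osm, the only cytokine among the 8, gave the largest ratio to Mx among them in each mutant library when all cells were counted. Osm (chromosome 11, 4236420 to 4241026, plus strand) stood at 121 CPM in NPMc+/Flt3-ITD (117 to 125), 49.5 CPM in Flt3-ITD (46.6 to 52.6), 25.4 CPM in NPMc+ (23.5 to 27.5) and 5.92 CPM in Mx (4.92 to 7.06). NPMc+/Flt3-ITD was 20.4-fold above Mx (17.0 to 24.6), Flt3-ITD 8.37-fold (6.94 to 10.2) and NPMc+ 4.29-fold (3.53 to 5.25). NPMc+/Flt3-ITD was 4.75-fold above NPMc+ (4.36 to 5.18) and 2.44-fold above Flt3-ITD (2.27 to 2.61). In male-called cells the ratio of Osm to Mx was lower than that of Socs2 in NPMc+/Flt3-ITD (14.5 and 17.8) and in Flt3-ITD (7.17 and 8.69), and lower than that of Socs3 in NPMc+ (3.02 and 3.41). In female-called cells it was lower than that of Socs3 in Flt3-ITD (7.16 and 7.82).

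Shares of cells gave Osm the same order of libraries. It was detected at 3000 UMIs in 21% of NPMc+/Flt3-ITD cells, 9.79% of Flt3-ITD cells, 5.69% of NPMc+ cells and 1.64% of Mx cells. Without the top 1% of cells by Osm UMIs the NPMc+ level was below 20 CPM, the minimum for a count, at a log2 ratio to Mx of 2.13 in place of 2.10. Cells with at least 2 granulocyte progenitor markers had more Osm: 138 CPM against 104 in the other cells of NPMc+/Flt3-ITD, 72.9 against 33.1 in Flt3-ITD, 31.2 against 19.9 in NPMc+ and 8.67 against 5.58 in Mx. With cells carrying 2 markers of another lineage left out, Osm was at 106 CPM in NPMc+/Flt3-ITD, 36.0 in Flt3-ITD, 18.5 in NPMc+ and 6.21 in Mx. Female-called cells changed the order of the single alleles, with 69.3 CPM in NPMc+/Flt3-ITD, 30.6 in Flt3-ITD, 38.4 in NPMc+ and 4.27 in Mx, the last from 22 UMIs. The receptor chain specific to oncostatin M, Osmr, stood at 0 CPM in NPMc+/Flt3-ITD, 0.05 in Flt3-ITD, 0.16 in NPMc+ and 0.05 in Mx, and it was named after its values were seen. A count of 0 allows up to 0.11 CPM in NPMc+/Flt3-ITD.

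The repressor gene Bcl6 (chromosome 16, 23965052 to 23988852, minus strand) was close to the limit of detection. It had 4 UMIs in NPMc+/Flt3-ITD, 15 in Flt3-ITD, 13 in NPMc+ and 38 in Mx, or 0.15, 0.68, 0.52 and 1.81 CPM. The Mx interval (1.28 to 2.49 CPM) lay above the other 3, of which the highest upper bound was 1.12 CPM in Flt3-ITD. NPMc+/Flt3-ITD was 12.2-fold below Mx (4.40 to 47.2), Flt3-ITD 2.66-fold (1.43 to 5.20) and NPMc+ 3.5-fold (1.82 to 7.16). Bcl6 was under 20 CPM in each library and entered no count.

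Counts against the background placed the 8 genes among all genes. Members and lists were chosen with earlier results of these data known. The counts here and in the lists below are therefore descriptions and not independent evidence. A gene was counted from 2-fold with at least 20 CPM in either library. In Flt3-ITD against Mx, 2.38% of the 6546 genes at that level were higher, and of the 6 members that reached it 5 were (Cish, Socs2, Socs3, Pim2 and Osm). In NPMc+ against Mx the background was 1.78% and 2 of 6 members were higher (Socs3 and Osm). In NPMc+/Flt3-ITD against Mx it was 5.42%, and 6 of 7 members were higher, all but Socs1. For NPMc+/Flt3-ITD against NPMc+, 5.51% of genes and 3 of 7 members were higher (Socs2, Pim2 and Osm). For NPMc+/Flt3-ITD against Flt3-ITD, 4.28% of genes and 3 of 7 members were higher, the same 3 names, while 4.46% of genes and 1 member, Socs3, were lower. In the other 4 comparisons no member was at least 2-fold lower, where the background was 1.74%, 2.23%, 5.74% and 4.59% in the order above.

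For the members that reached 20 CPM, the median log2 ratio beside that of all genes was 1.87 and -0.06 in Flt3-ITD against Mx, 0.70 and -0.01 in NPMc+ against Mx, and 1.39 and 0.21 in NPMc+/Flt3-ITD against Mx. It was 0.94 and 0.22 in NPMc+/Flt3-ITD against NPMc+, and 0.96 and 0.28 in NPMc+/Flt3-ITD against Flt3-ITD. These medians leave out Bcl6 throughout and Socs1 in both single-allele comparisons with Mx. Over all 8 genes the medians were 1.14, 0.64, 1.37, 0.85 and 0.81 in the same order of comparisons. The 3 comparisons with Mx share that library, and the members passed the minimum partly through the library in which they were high. TMM scaling moved each log2 ratio by 0.14 in Flt3-ITD and in NPMc+ against Mx, by -0.03 in NPMc+/Flt3-ITD against Mx, and by -0.17 in both other comparisons. The 2-fold calls over all genes were 156 higher and 114 lower in Flt3-ITD against Mx, and 192 and 71 with TMM. They were 117 and 147 in NPMc+ against Mx (161 and 98 with TMM), 373 and 311 in NPMc+/Flt3-ITD against NPMc+ (285 and 385), and 289 and 301 in NPMc+/Flt3-ITD against Flt3-ITD (216 and 381). In NPMc+/Flt3-ITD against Mx, 376 higher and 398 lower calls became 342 and 639 when mitochondrial and ribosomal protein UMIs were left out of the total. Member calls were the same under TMM. Without mitochondrial and ribosomal protein UMIs in the total, Socs3 was under 2-fold in NPMc+/Flt3-ITD against Mx.

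**Figure D3:**
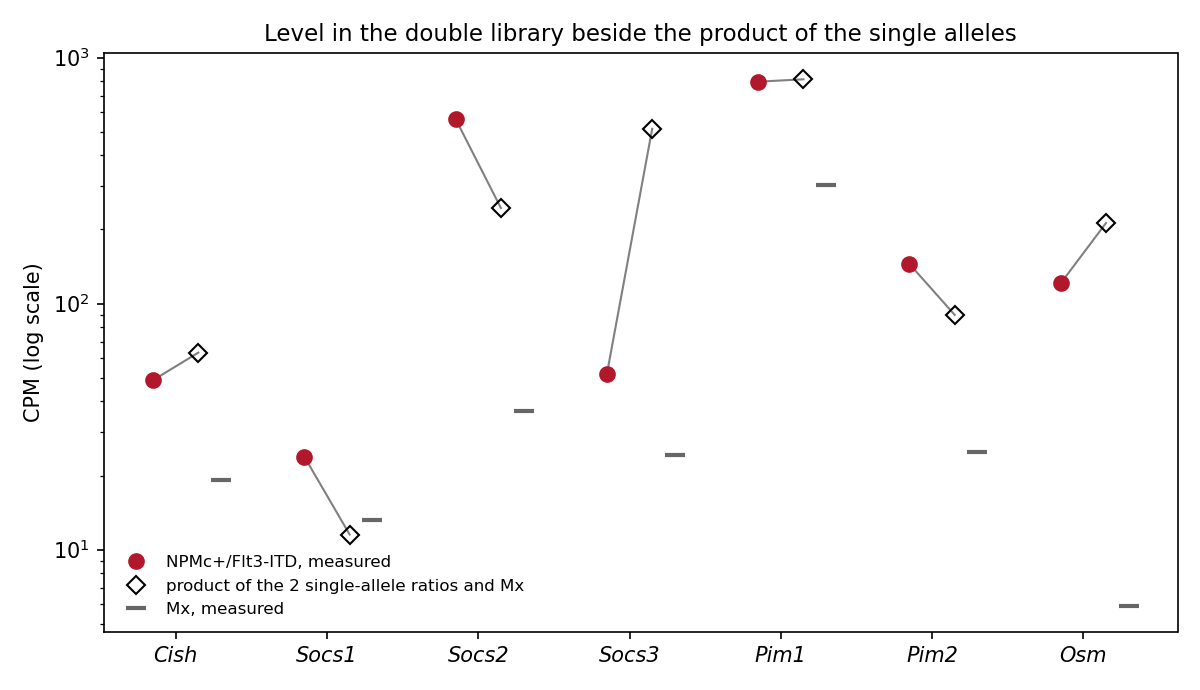
Measured CPM in NPMc+/Flt3-ITD (filled circles), the CPM that multiplying the 2 single-allele ratios with the Mx level would give (open diamonds), and the Mx level (dashes), on a log axis for 7 genes. Socs3 has the widest gap, 51.5 CPM measured beside 513 CPM from the product, and Pim1 the narrowest, 798 beside 815.

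The 4 genotypes form a crossed set of both alleles, so the double library was set beside the product of the single-allele ratios. For Pim1 the measured level in NPMc+/Flt3-ITD was 798 CPM and the product 815 CPM, a log2 departure of -0.03 (-0.09 to 0.02). Socs2 exceeded its product, at 563 CPM beside 244 CPM and a departure of 1.20 (1.06 to 1.35). Socs1 (1.05, 0.74 to 1.36) and Pim2 (0.69, 0.51 to 0.87) also lay above it. Cish (-0.37, -0.59 to -0.16) and Osm (-0.82, -1.11 to -0.52) lay below it. Socs3 lay furthest from its product, at 51.5 CPM beside 513 CPM, a departure of -3.32 (-3.48 to -3.15). These values are for all cells counted together.

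Within each sex the departure for Socs3 was -3.27 in male-called and -3.03 in female-called cells. That for Socs2 was 0.71 and 0.68, for Pim2 0.55 and 0.12, for Socs1 0.90 and 0.69, and for Pim1 -0.09 and -0.48. Cish departed by -0.67 in male-called and 0.40 in female-called cells, so its sign differed between the sexes, and Osm by -0.58 and -1.99. With cells that had 2 markers of another lineage left out, the departure of Socs3 was -3.26, while those of Socs2 (0.12), Osm (-0.01), Pim2 (0.08) and Socs1 (0.31) were nearer to 0 and those of Cish (-1.22) and Pim1 (-0.42) further from it. With 1 library per corner these departures have no replicate check.

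**Figure D4:**
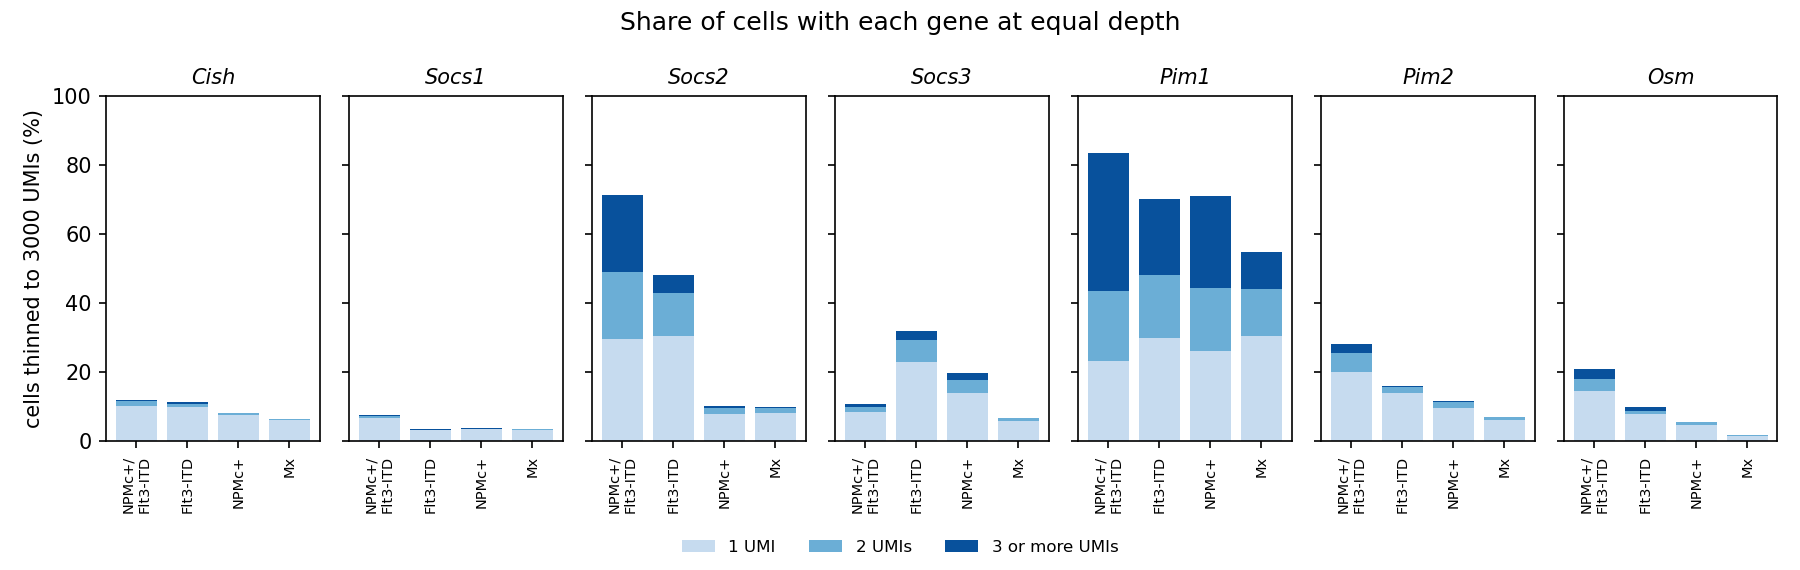
Percent of cells thinned to 3000 UMIs that held 1, 2 or at least 3 UMIs of each of 7 genes (stacked bars from 0), by library. Pim1 is found in 54.8% to 83.8% of cells in each library, whereas Socs2 is found in 71.4% and 48.3% of NPMc+/Flt3-ITD and Flt3-ITD cells and in about 10% of NPMc+ and Mx cells.

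Cells with at least 3 members were more frequent in each library than the product of the single shares gives. At 3000 UMIs a cell held on average 2.34 of the 8 transcripts in NPMc+/Flt3-ITD, 1.91 in Flt3-ITD, 1.30 in NPMc+ and 0.91 in Mx. At least 3 were found in 42.0% of NPMc+/Flt3-ITD cells, 28.3% of Flt3-ITD cells, 10.4% of NPMc+ cells and 2.94% of Mx cells. The product of the single shares gives 41.5%, 26.7%, 8.15% and 2.60% in the same order. At least 4 were found in 14.1%, 7.77%, 1.82% and 0.39% of cells, beside 11.5%, 5.96%, 0.99% and 0.19% from the product. None of the 8 was found in 3.14%, 9.15%, 19.5% and 32.0% of cells, beside 1.92%, 6.80%, 15.3% and 31.1%.

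For pairs of members with at least 20 cells given by the product, the median ratio of measured to product cells was 1.03 over 21 pairs in NPMc+/Flt3-ITD, 1.06 over 18 pairs in Flt3-ITD, 1.15 over 12 pairs in NPMc+ and 1.07 over 6 pairs in Mx. Ratios were above 1 for 15, 16, 11 and 4 of these pairs in that order. The highest of all was 1.47, in NPMc+. Among these pairs, Cish with Pim2 had the highest ratio in NPMc+/Flt3-ITD, at 1.38 times the product, and in Flt3-ITD, at 1.30 times, against 1.06 in NPMc+. Socs1 with Socs3 had the lowest in NPMc+/Flt3-ITD, at 0.66 times the product, with 16 cells measured and 24.3 given by it. Cish with Osm had the lowest in Flt3-ITD, at 0.71 times. Cish with Socs2 stood at 1.09 times the product in NPMc+/Flt3-ITD and 1.04 in Flt3-ITD. In NPMc+ it was under the minimum of 20 cells, with 43 cells measured and 19.0 given by the product. Cells of 1 library share their source, so these ratios are descriptions.

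Detection of Socs2 went with Cd48 in opposite directions across the libraries. Cd48 encodes a surface protein used to separate stem cells, which lack it, from multipotent progenitors, and Procr marks LT-HSCs. In NPMc+/Flt3-ITD, 73.8% of the 2217 cells with a Cd48 UMI and 64.5% of those without held Socs2 at 3000 UMIs. In Flt3-ITD these were 58.0% of 840 and 42.2%. In NPMc+ they were 2.84% of 598 and 12.8%, and in Mx 3.73% of 161 and 10.3%. The share was thus higher in Cd48-positive cells of the libraries with the Flt3-ITD allele and lower in those of the libraries without it.

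By Procr, Socs2 was found in 78.4% of positive and 70.7% of negative NPMc+/Flt3-ITD cells and 52.0% and 47.7% in Flt3-ITD, against 20.7% and 7.04% in NPMc+ and 13.4% and 8.43% in Mx. Among cells with a UMI of the proliferation marker Mki67, Socs2 was in 82.2% of 107 in NPMc+/Flt3-ITD and 52.9% of 119 in Flt3-ITD, against 3.79% of 132 in NPMc+ and 1.98% of 101 in Mx. In Mki67-negative cells the shares were 71.0%, 48.0%, 10.6% and 10.2% in that order. The intervals of positive and negative cells overlapped for Flt3-ITD by Procr and by Mki67.

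**Figure D5:**
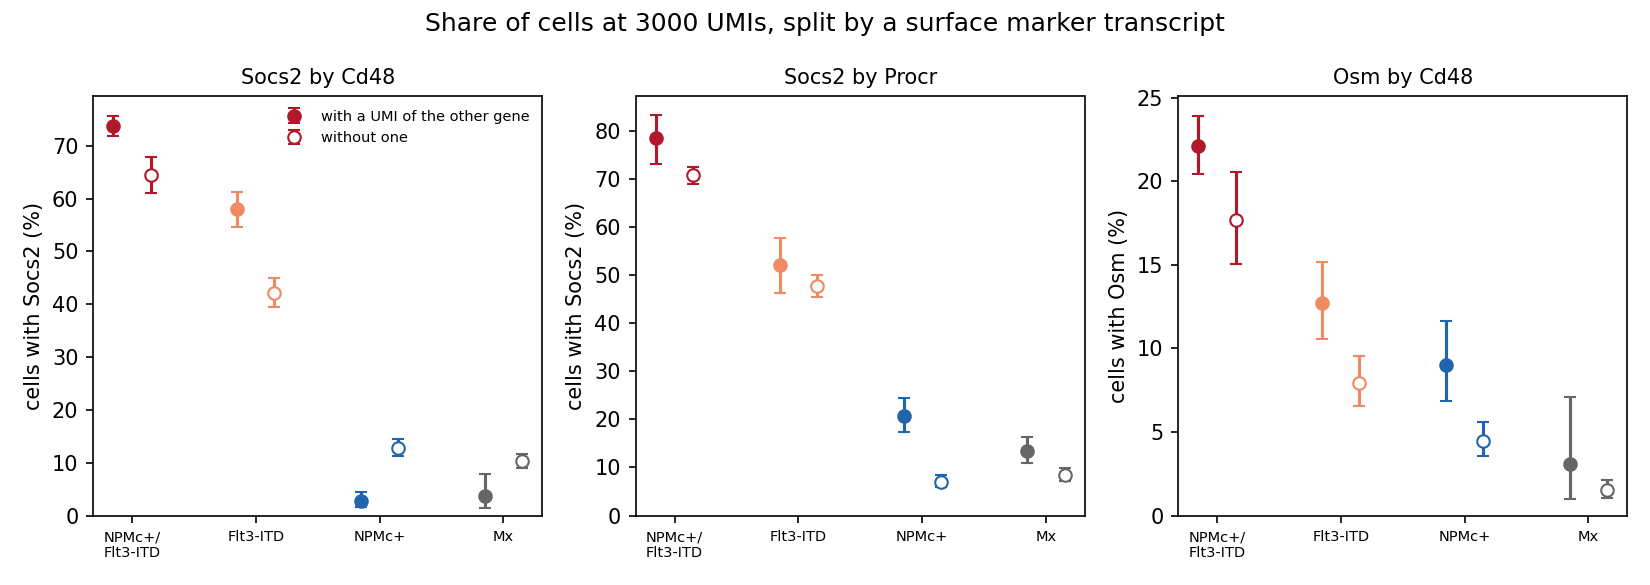
Percent of cells at 3000 UMIs with a UMI of Socs2 or Osm (vertical axes from 0), in cells with a UMI of Cd48 or Procr (filled) and without one (open), with exact 95% binomial intervals. Socs2 is higher in Cd48-positive than Cd48-negative cells of NPMc+/Flt3-ITD (73.8% and 64.5%) and lower in those of NPMc+ (2.84% and 12.8%).

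Osm went with Cd48 in all 4 libraries by value. It was found in 22.1% of Cd48-positive and 17.7% of Cd48-negative cells in NPMc+/Flt3-ITD, 12.7% and 7.94% in Flt3-ITD, 9.03% and 4.48% in NPMc+, and 3.11% and 1.53% in Mx. The intervals overlapped in NPMc+/Flt3-ITD and in Mx, where 5 cells held both. Pim1 was detected in 74.8% of Mki67-positive and 84.1% of Mki67-negative cells in NPMc+/Flt3-ITD, 59.7% and 70.8% in Flt3-ITD, 57.6% and 71.9% in NPMc+ and 40.6% and 55.5% in Mx. Pim1 was also lower in cells with 2 erythroid markers than in the other cells, at 303 and 804 CPM in NPMc+/Flt3-ITD, 306 and 511 in Flt3-ITD, 250 and 525 in NPMc+ and 145 and 310 in Mx.

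The other genes of the pathway were read by list, beside the shares over all genes given above: 2.38% higher and 1.74% lower in Flt3-ITD against Mx, 1.78% and 2.23% in NPMc+ against Mx, and 5.42% and 5.74% in NPMc+/Flt3-ITD against Mx. Of 25 receptors and ligands, 12 reached 20 CPM in Flt3-ITD against Mx, of which 1 was higher and none lower, and their median log2 ratio was -0.10. In NPMc+ against Mx 0 of 12 were higher and 1 lower (median 0.07), and in NPMc+/Flt3-ITD against Mx 2 were higher and 1 lower (median 0.11). Csf2rb, the common signalling chain of the interleukin-3 and GM-CSF receptors, stood at 36.5 CPM in NPMc+/Flt3-ITD and 25.6 in Flt3-ITD, against 14.8 in NPMc+ and 11.2 in Mx. The stem cell factor receptor Kit stood at 106 CPM in NPMc+/Flt3-ITD, 99.3 in Flt3-ITD and 107 in NPMc+, against 175 in Mx.

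The JAK and STAT genes had 9 of 11 at that level. None was at least 2-fold higher than Mx in a mutant library, and 1 was lower in NPMc+/Flt3-ITD and 1 in Flt3-ITD. No gene of this list was counted in NPMc+ against Mx, and the list medians were -0.21, -0.02 and 0.06 in Flt3-ITD, NPMc+ and NPMc+/Flt3-ITD against Mx. Stat5a, which transmits the signal of several of these receptors, was at 103 CPM in NPMc+/Flt3-ITD, 67.6 in Flt3-ITD, 86.1 in NPMc+ and 79.1 in Mx.

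Among other brakes and partners of the SOCS box, 16 of 21 genes reached the minimum against Mx and none was counted in Flt3-ITD or NPMc+. One was lower in NPMc+/Flt3-ITD: Elob, elongin B, which links the SOCS box to its ligase, at 157 CPM in NPMc+/Flt3-ITD, 352 in Flt3-ITD, 377 in NPMc+ and 352 in Mx. The ubiquitin ligase gene Cbl stood at 66.1 CPM in NPMc+/Flt3-ITD, 40.2 in Flt3-ITD, 28.6 in NPMc+ and 43.7 in Mx. The list medians were -0.20, -0.23 and 0.09 in Flt3-ITD, NPMc+ and NPMc+/Flt3-ITD against Mx.

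Of 32 other STAT and cytokine target genes, 24 reached the minimum in Flt3-ITD against Mx, with 10 higher (2.38% of all genes), 1 lower (1.74% of all genes) and a median of 0.14. In NPMc+ against Mx 6 of 23 were higher, beside 1.78% of all genes, and 0 lower (median 0.08). In NPMc+/Flt3-ITD against Mx 8 of 23 were higher, beside 5.42% of all genes, and 3 lower, beside 5.74% (median 0.27). Dusp5, an ERK phosphatase, was also higher with the Flt3-ITD allele, at 188 CPM in NPMc+/Flt3-ITD and 191 in Flt3-ITD, against 37.9 in NPMc+ and 20.7 in Mx. The cell cycle inhibitor gene Cdkn1a stood at 136, 192 and 48.0 CPM in NPMc+/Flt3-ITD, Flt3-ITD and NPMc+, against 18.3 in Mx. Id1 was highest in Flt3-ITD, at 15 CPM in NPMc+/Flt3-ITD, 90.5 in Flt3-ITD, 11.0 in NPMc+ and 4.01 in Mx. The cyclin gene Ccnd1 stood at 1.56 CPM in NPMc+/Flt3-ITD and 8.28 in Flt3-ITD, against 44.8 in NPMc+ and 24.4 in Mx.

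Immediate-early genes, which respond within minutes to many stimuli including tissue handling, were mostly above Mx in the mutant libraries. Of 20 at the minimum, 13 were higher than Mx in NPMc+/Flt3-ITD (median 1.12), 18 in Flt3-ITD (median 1.85) and 14 in NPMc+ (median 1.16). The shares over all genes were 5.42%, 2.38% and 1.78% in that order. Against Flt3-ITD, 7 of 20 were lower in NPMc+/Flt3-ITD, beside 4.46% of all genes, with a median of -0.81. Junb is in this list and in that of the other STAT and cytokine target genes. It was higher than Mx in each mutant library, so both lists count it. Klf2 stood at 749 CPM in NPMc+/Flt3-ITD, 1539 in Flt3-ITD, 594 in NPMc+ and 94.0 in Mx, and Atf3 at 24.9, 152 and 75.8 CPM in the mutants in that order and 6.54 in Mx. In cells without Nr4a1 and Atf3 UMIs, Socs2 in Flt3-ITD was 5.63-fold and Osm 8.99-fold above Mx. Those cells made up 5.10% of the Flt3-ITD library and 72.5% of Mx. Their median depth was 3792 UMIs in Flt3-ITD, beside 8661 in all its kept cells, and 7766 in Mx. The Flt3-ITD values rest on 124 UMIs of Socs2 and 34 of Osm.

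Genes with the most similar pattern over the 4 libraries were sought among 6857 genes, by the Euclidean distance of mean-centred log2(CPM + 1). Socs2 had no close match: its nearest was Sparc at a distance of 0.95, then Enah and Ldlrad4, all under 50 CPM in each library. Nearest to Socs3 were Dyrk3 (0.57), Nr4a2 (0.58) and Junb (0.58), of which Nr4a2 and Junb are in the immediate-early list. Osm was nearest to Cd48 (0.33), followed by Cd28 and Mcpt8, and Cd48 stood at 720 CPM in NPMc+/Flt3-ITD, 220 in Flt3-ITD, 121 in NPMc+ and 32.0 in Mx. Pim2 was nearest to Bin1 (0.11), Fgf3 (0.18) and Adgrg3 (0.19), and Pim1 to Rogdi (0.08), Clnk and Litaf. Cish was nearest to Hilpda (0.11), Hk3 and Myl6b, Socs1 to Idh1 (0.04), Usp20 and Trpv2, and Bcl6 to Gprasp1 (0.05), Smarca2 and Ppfibp2. Likeness over 4 libraries is a weak description, and low genes lie close to the mean on this scale.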

How the data were processed

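Each library was a table of raw UMI counts per gene and cell barcode, deposited by the authors and made with 10x Single Cell 3′ v2 chemistry, per the labels' protocols. STARsolo in STAR 2.7.0c and mm10 are named in the submitters' processing notes. Barcodes were kept as given in the report, and UMIs of kept cells were summed and divided by the library total (CPM). For shares, each cell was thinned once to 3000 UMIs (seed 1), which left 2991 NPMc+/Flt3-ITD, 2175 Flt3-ITD, 2250 NPMc+ and 2311 Mx cells. Ratio and share intervals are exact (Clopper-Pearson, 95%) and levels have exact Poisson intervals. The floor for a count of 0 was 3 UMIs. The intervals on departures are normal approximations. The ratio calculation was tested on simulated counts with Poisson error only, so that test does not cover variation between cells, animals or libraries. No doublet caller was run. Leaving out cells above 2 times their library's median UMIs, or with UMIs of both sexes, was an alternative for doublets. Cells were called male by Ddx3y, Eif2s3y, Kdm5d or Uty without Xist, and female by the reverse. Members, lists and tests were chosen with earlier results of these data known. Named genes were the members, the 3 genes of each list furthest from Mx in each comparison with it, the 3 nearest genes per member, Flt3 and Npm1. Osmr and the marker genes fell outside that rule, and some genes it picks are not reported here. Alternatives were 14 planned and 2 chosen after seeing the data, and departures from the product were recomputed in subsets of cells after seeing the data. TMM factors came from edgeR 4.0.16, and coordinates from GENCODE M21. Tools were numpy 2.4.6, scipy 1.17.1 and pandas 2.3.3.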

Additional observations from a re-analysis of the deposited data

Results flagged for a closer look

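Socs3 changed direction with the second allele. The log2 ratio for the Flt3-ITD allele was 2.58 in Flt3-ITD against Mx and -0.73 in NPMc+/Flt3-ITD against NPMc+, so in all cells the allele went with a higher level without NPMc+ and a lower level with it. In female-called cells NPMc+/Flt3-ITD was at 94.8 CPM (80.0 to 112) and NPMc+ at 99.2 CPM (90.6 to 108), so a lower level was not detectable there, while in male-called cells NPMc+/Flt3-ITD was 0.56 times NPMc+. The log2 ratio for NPMc+ was 1.82 in NPMc+ against Mx and -1.49 in NPMc+/Flt3-ITD against Flt3-ITD. With 1 library per genotype the difference between these ratios was not tested, and genotype and library cannot be told apart. The departure from the product of the single-allele ratios was -3.32 in all cells, -3.27 in male-called cells, -3.03 in female-called cells and -2.92 in cells without Nr4a1 and Atf3 UMIs. The last value rests on 122 Flt3-ITD cells with 65 Socs3 UMIs.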

How the results depend on the processing

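No member with a call changed sign under the 16 alternatives run on counts and ratios. Of 160 recomputed counts of members with a 2-fold difference, 152 stayed within 1.5 times the reported count. The 160 include counts of lower members, which were 0 in every comparison but NPMc+/Flt3-ITD against Flt3-ITD and could only rise. Of 541 recomputed log2 ratios of members, 219 lay outside the 95% counting interval of the reported value, and of 96 shares of cells recomputed with other thinnings 59 did. In NPMc+ against Mx the 2 higher members became 1 without the top 1% of cells per gene (Osm under the minimum level), 4 with cells of other lineages left out and 5 at 1.5-fold. In NPMc+/Flt3-ITD against Flt3-ITD the 3 higher members became 1 in female cells and 5 at 1.5-fold, and the 1 lower member (Socs3) became 0 in female cells. In NPMc+/Flt3-ITD against NPMc+, 6 were higher and 1 lower at 1.5-fold. The cause was not tested for any of these, except that the fold and the minimum level act by construction. Socs3 in NPMc+/Flt3-ITD against Mx, 2.13-fold, lay under 2-fold with equal cell weights (1.98), without possible doublets (1.99), in male cells (1.92), in cells without Nr4a1 and Atf3 UMIs (1.92), and without mitochondrial and ribosomal protein UMIs (1.86). Socs1 came to 2-fold or more in some comparisons of NPMc+/Flt3-ITD with equal cell weights, without its top 1% of cells, without possible doublets and in cells without Nr4a1 and Atf3 UMIs. Osm lost its call in NPMc+/Flt3-ITD against NPMc+ in female cells, where Cish gained one, and against Flt3-ITD in cells without Nr4a1 and Atf3 UMIs. Shares at 2000 or 5000 UMIs kept the order of libraries for Cish, Socs3, Pim2 and Osm, while Flt3-ITD and NPMc+ exchanged places for Pim1, NPMc+ and Mx did so for Socs2, and the low shares of Socs1 and Bcl6 also changed order. No paired analysis was possible because each genotype had 1 library and none of the results comes from a test. Depth limits Bcl6, with 4 to 38 UMIs a library, and Osm in Mx, with 124.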
